A study of Mus musculus with 28 samples.

Results

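A set of 9 genes from 3 families of neuronal surface proteins were followed across 7 inducible mouse embryonic stem cell lines. They were the leucine-rich repeat neuronal genes Lrrn1, Lrrn2 and Lrrn3, the fibronectin leucine-rich transmembrane genes Flrt1, Flrt2 and Flrt3, and the netrin-G ligand genes Lrrc4, Lrrc4b and Lrrc4c. They are 9 of the 19421 genes in the table, where their Entrez identifiers are 16979, 16980, 16981, 396184, 399558, 71436, 192198, 272381 and 241568 in that order. Lrrn3, Lrrc4 and Flrt1 were selected on their levels in these same libraries, where they were high with doxycycline (Dox) against untreated cells of the same line, so their values are given as a description and without a test. The other 6 were taken as their paralogs and were tested.

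Each line carried a Dox-inducible cassette in A2loxCre mouse embryonic stem cells that encoded Atoh1 (iAtoh1), Gfi1 (iGfi1), Pou4f3 (iPou4f3), Gfi1 with Atoh1 (iG+A), Gfi1 with Pou4f3 (iG+P), Pou4f3 with Atoh1 (iP+A) or all 3 factors (iGPA). These transcription factors act in the differentiation of inner ear hair cells. The cassettes ended in the fluorescent reporter mVenus, and in them Atoh1 carried a FLAG tag and Pou4f3 a MYC tag. Lines were grown as embryoid bodies, and Dox at 2 µg/ml was given for 48 h from day 4. RNA came from sorted Venus+ cells of the Dox groups and from whole untreated bodies of the No Dox groups, all at day 6, so the cassette and the sort cannot be told apart in any Dox effect. There were 14 groups of 2 replicates, which the submitters describe as different clones of a line, and 28 libraries in all.

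Leucine-rich repeat proteins of this kind span the cell membrane and expose their repeats to neighbouring cells, where they take part in axon guidance, target choice and synapse formation. The FLRT proteins bind latrophilins (Adgrl genes) and the Unc5 netrin receptors, the Lrrc4 and Lrrc4c proteins bind the netrin-G proteins encoded by Ntng2 and Ntng1, and the Lrrc4b protein binds receptor tyrosine phosphatases of the LAR family. Hair cells and neurons both form synapses, and many of these genes are active in the developing nervous system.

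Values are normalized counts, the deposited log2 values turned back to the linear scale. From the step between low values, the libraries held about 30.3 to 48.0 M assigned reads. The factors followed the labels: with Dox, Atoh1 stood at 12816 to 21242 in the 8 libraries with its cassette and at 14.3 to 32.5 in the other 6, Gfi1 at 8119 to 12487 against 49.7 to 113, and Pou4f3 at 4694 to 19883 against 27.7 to 101. An exact 0 in these estimates need not mean that no RNA was present, since 27 genes were at 0 in 1 replicate of a group and above 50 in the other. Lrrn3 and Lrrc4 were among 182 genes listed at 0 in all 14 untreated libraries, and they were 2 of the 9 of those that passed 50 with Dox in at least 1 library. In bulk RNA, fewer cells of a type and less RNA per cell cannot be told apart.

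The window from 250 bases before to 50 bases after the transcription start was listed by RefSeq for 7 of the 9 members (build GRCm38.p6). Those of Lrrn1, Lrrn2 and Lrrc4 are printed, because the results below turn on when these genes were high: Lrrn1 and Lrrn2 rose in every line with Atoh1, Lrrn1 also in iPou4f3 and iG+P, which have no Atoh1 cassette, and Lrrc4 was above 0 only where Gfi1 came with another factor. Capitals mark the letters CAGCTG or CATCTG (or its reverse complement CAGATG), which are E-boxes, the kind of site that Atoh1 binds. Each is written 5′ to 3′ on the strand of its gene.
Lrrn1 (chr6:107529476-107529775, + strand): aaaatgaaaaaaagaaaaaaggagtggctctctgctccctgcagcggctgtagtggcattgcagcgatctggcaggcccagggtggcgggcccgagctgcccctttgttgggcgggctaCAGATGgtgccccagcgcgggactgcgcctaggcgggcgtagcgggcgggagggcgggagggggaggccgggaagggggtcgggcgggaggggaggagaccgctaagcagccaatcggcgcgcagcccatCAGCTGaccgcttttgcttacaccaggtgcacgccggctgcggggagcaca
Lrrn2 (chr1:132880105-132880404, + strand): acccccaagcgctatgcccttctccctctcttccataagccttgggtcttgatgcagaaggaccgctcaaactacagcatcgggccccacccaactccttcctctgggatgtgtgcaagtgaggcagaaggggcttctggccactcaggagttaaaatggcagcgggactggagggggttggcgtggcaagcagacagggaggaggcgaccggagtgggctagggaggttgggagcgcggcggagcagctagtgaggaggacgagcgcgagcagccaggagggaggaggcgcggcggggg
Lrrc4 (chr6:28831698-28831997, - strand): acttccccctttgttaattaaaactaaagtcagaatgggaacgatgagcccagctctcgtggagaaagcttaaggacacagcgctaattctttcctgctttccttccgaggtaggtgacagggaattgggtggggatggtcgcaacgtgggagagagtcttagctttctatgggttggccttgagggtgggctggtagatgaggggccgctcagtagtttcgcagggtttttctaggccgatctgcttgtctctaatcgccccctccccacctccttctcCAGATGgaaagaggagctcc

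The Lrrn1 window held CAGATG at position 120 and CAGCTG at position 250, counted from 1 at the 5′ end. The Lrrc4 window held CAGATG at position 281, and the Lrrn2 window held none of the 6 motifs searched on both strands. The other 4 motifs were AAATCAC and AAATCTC for Gfi1 and ATAATTA and ATGCAT for POU factors such as Pou4f3, and none was found in any of the 7 windows. Of the windows not printed, that of Flrt3 held CATCTG at position 149 and that of Lrrc4c held it at positions 39 and 149, while those of Flrt2 and Lrrc4b held no match. For comparison, CAGCTG was present in 16.3% and CATCTG in 17.2% of all 32851 such windows. AAATCAC was present in 3.2%, AAATCTC in 4.05%, ATAATTA in 2.7% and ATGCAT in 5.04%. These are matches of letters in a short window and were not tested as binding sites.

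The 3 LRRN genes encode type I membrane proteins with leucine-rich repeats, an immunoglobulin domain and a fibronectin domain. Differences between these genes were not tested. Lrrn1 rose in all lines but iGfi1, Lrrn2 rose in the 4 lines with Atoh1, and Lrrn3, chosen for its rise, was high with Dox in the 4 lines with Pou4f3. A call here needed an adjusted p under 0.05 in limma, with Benjamini-Hochberg adjustment over all 16837 genes tested, and a log2 change of at least 1.5. Of the 6 tested paralogs, calls were made for 5 in iGPA (14% of all genes tested), 5 in iG+A (12.3%), 3 in iAtoh1 (5.4%), 2 in iG+P (10.5%), 2 in iP+A (7.29%), 1 in iGfi1 (4.82%) and 1 in iPou4f3 (2.08%). The median log2 change of the 6 ran from -0.24 in iG+P to 1.698 in iG+A, and that of all genes from -0.03 to 0.02.

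Lrrn1 (NCBIM37 chr6:107479779-107520204, + strand, 2 exons) stood between 26.1 and 95.8 in the 14 untreated libraries, with a median of 59.5. With Dox it was highest in iP+A, at 1166 and 924, then in iGPA at 872 and 855 and in iPou4f3 at 828 and 804. It stood lower in iG+A at 417 and 471, in iAtoh1 at 483 and 277 and in iG+P at 355 and 291. These 12 libraries all lay above every untreated library, and in iGfi1, at 106 and 91.8, the Dox libraries lay just above those of their own line. The rise, as a log2 change with the standard error of 0.455 common to every line, was 4.49 in iP+A (limma adjusted p = 8.73e-07), 3.99 in iPou4f3 (adjusted p = 2.09e-05), 3.92 in iGPA (adjusted p = 1.51e-06), 2.99 in iG+A (adjusted p = 4.63e-05), 2.84 in iAtoh1 (adjusted p = 0.000217) and 2.05 in iG+P (adjusted p = 0.00175). The change of 0.60 in iGfi1 did not pass (adjusted p = 0.349). When only the iAtoh1 libraries entered the fit, the call in iAtoh1 was lost (adjusted p = 0.0744).

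Lrrn2 (NCBIM37 chr1:134776850-134836582, + strand, 2 exons in its longest transcript) stood between 110.2 and 340.3 without Dox, with a median of 174. With Dox and Atoh1 it reached 1068 and 1639.6 in iAtoh1, 912 and 1421 in iG+A, 977 and 959 in iP+A and 1317 and 1324 in iGPA. The 8 Dox libraries with Atoh1 did not overlap the 6 without, which ran from 106 to 252. The log2 change (SE 0.279) was 2.73 in iAtoh1 (limma adjusted p = 1.92e-06), 3.23 in iG+A (adjusted p = 7.81e-08), 2.58 in iP+A (adjusted p = 1.86e-06) and 2.90 in iGPA (adjusted p = 1.55e-07). In iPou4f3 it went from 134 and 121 to 252 and 231, a log2 change of 0.92 that did not pass (adjusted p = 0.0677), and in iGfi1, from 164 and 196 to 149.8 and 199, the change of -0.05 did not pass either (adjusted p = 0.914). In iG+P it went from 340.3 and 214 to 157 and 106, and the log2 change of -1.06 was under the fold threshold (adjusted p = 0.0062). The 4 calls held when any 1 library was left out.

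Lrrn3 (NCBIM37 chr12:42178260-42212338, - strand, 2 exons) was listed at 0 in all 14 untreated libraries and in the Dox libraries of iAtoh1 and iGfi1. With Dox it stood at 1003 and 835 in iP+A, at 582 and 631 in iGPA, at 523 and 394 in iPou4f3 and at 196 and 430.4 in iG+P. The 8 Dox libraries with Pou4f3 thus ran from 196 to 1003, above the 6 without it, of which 4 were at 0. The exception was iG+A, which has no Pou4f3 cassette and where Lrrn3 was at 2.13 in replicate 1 and 90.3 in replicate 2. No fold is given for it, since every untreated group was at 0.

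Levels of the 3 can be set side by side only per length, here as normalized counts per kb of the longest transcript. Without Dox, Lrrn2 (32.1 to 99.3 per kb, median 50.7) stood above Lrrn1 (7.09 to 26.0 per kb, median 16.2) without overlap, and Lrrn3 was at 0. In iGPA cells with Dox the order was Lrrn2 at 384 and 386 per kb, Lrrn1 at 237 and 232 per kb and Lrrn3 at 183 and 198 per kb. In iP+A cells with Dox the 3 overlapped, with Lrrn1 at 317 and 251 per kb, Lrrn3 at 316 and 263 per kb and Lrrn2 at 285 and 280 per kb. In iAtoh1 cells with Dox, Lrrn2 led at 312 and 478 per kb and Lrrn1 stood at 131 and 75.3 per kb.

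**Figure D1:**
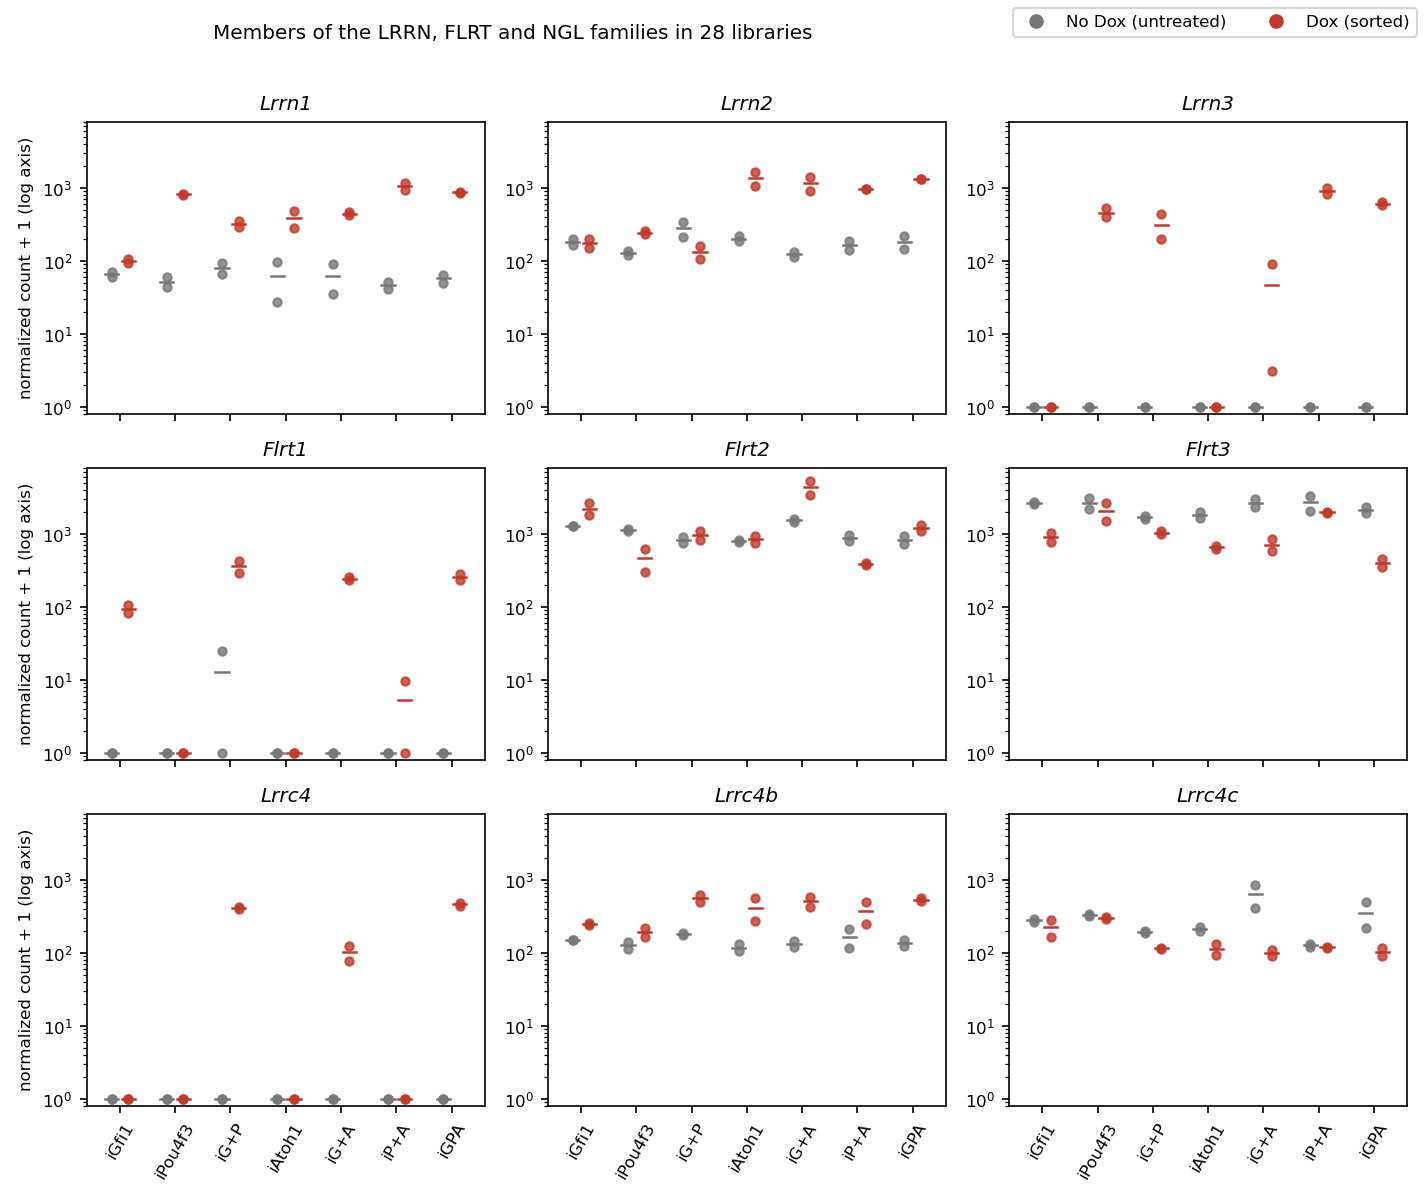
Normalized count + 1 (log axis) of each member in the 28 libraries by line; points are libraries, short lines are the means of the 2 replicates, grey is No Dox and red is Dox, and points at the bottom are listed at 0. Lrrn2 with Dox lies between 912 and 1639.6 in the 4 lines with Atoh1 and between 106 and 252 in the others, while Lrrn3, Flrt1 and Lrrc4 are at 0 in nearly all untreated libraries.

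Neuronal markers were called up in every line but iGfi1. There were 12 neuronal markers such as Tubb3, Dcx and Elavl3. Called up were 11 in iP+A (4.7% of all genes tested), 9 in iGPA (8.65%), 4 in iAtoh1 (2.89%) and 4 in iG+A (7.35%). In iPou4f3 3 rose (1.47%), in iG+P 3 (5.16%) and in iGfi1 0 (2.15%). Called down were 2 in iG+A (4.95%) and 1 each in iAtoh1 (2.52%), iGfi1 (2.67%), iG+P (5.36%) and iGPA (5.31%). Their summed level was 23207 to 29225 with Dox in iP+A, 8255 to 8343 in iGPA, 3982 to 4339 in iPou4f3, 2442 to 3489 in iAtoh1, 2066 to 2382 in iG+P, 1377 to 1669 in iG+A and 1009 to 1107 in iGfi1, against 1220 to 2243 over the untreated libraries. None of the 12 was at 0 in an untreated library, and Nefm was at 0 in 1 Dox library. In iG+A the summed neuronal level with Dox lay within the untreated range, although 4 markers rose and 2 fell there, with a median log2 change of 0.58. The part of neuronal cells in the LRRN changes was not tested.

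Blood markers were called down in every line with Atoh1 and in iG+P. There were 8 such markers, among them the embryonic globin gene Hbb-bh1 and the erythroid factor gene Gata1. Called down were 6 in iAtoh1 (2.52% of all genes tested), 5 in iG+A (4.95%), 5 in iP+A (2.58%) and 4 in iGPA (5.31%). In iG+P 2 fell (5.36%) and in iPou4f3 0 (0.606%), and in iGfi1 1 rose and 0 fell (2.15% and 2.67%). Between lines with and without Atoh1 the Dox effect was lower for 6 of the 8, with a median of -2.42, where 1.59% of all genes tested were called down. Their summed level with Dox was 15358 to 19824 in iAtoh1, 45248 to 53668 in iG+A, 13464 to 31216 in iP+A, 27288 to 48511 in iGPA, 36560 to 86227 in iG+P, 248415 to 263862 in iPou4f3 and 195843 to 363483 in iGfi1, against 68176 to 493942 without Dox. Ptprc was at 0 in 1 untreated and 4 Dox libraries. Of 7 pluripotency markers, 4 fell in iP+A, 3 in iG+A, 3 in iGPA and 1 in iG+P, and of 11 visceral endoderm markers between 1 and 4 fell in each line, and none of either list rose. Of 7 endothelial markers 0 to 2 fell in a line, and of 8 genes induced by dissociation 2 fell in iG+A and 0 elsewhere. These counts are to be read against the same shares of all genes called down. The part of these cells in the changes of the members was not tested.

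The FLRT genes, whose proteins guide migrating neurons and growing axons, were likewise not tested against each other. Flrt3 was called down in iGPA, iG+A and iGfi1, Flrt2 had no call in any single line, and Flrt1, chosen for its rise, was high with Dox in the 4 lines with Gfi1.

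Flrt1 (NCBIM37 chr19:7166504-7180219, - strand, 2 exons) was listed at 0 in 13 of the 14 untreated libraries, and the exception was iG+P replicate 1 at 23.5. With Dox it stood at 427 and 287 in iG+P, 234 and 279 in iGPA, 252 and 232 in iG+A and 80.2 and 104 in iGfi1. All 8 Dox libraries with Gfi1 lay above the 6 without, where Flrt1 was at 0 in 5 and at 8.65 in iP+A replicate 2. In iGfi1, where Gfi1 was the only factor, it was lower than in the lines where Gfi1 came with another factor.

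Flrt2 (NCBIM37 chr12:96930436-97023425, + strand, 2 exons in its longest transcript) stood between 716 and 1609.9 without Dox. With Dox it reached 5291 and 3457 in iG+A and 1813 and 2642 in iGfi1, and it stood at 301 to 627 in iPou4f3 and at 378 and 393 in iP+A. Its iG+A and iGfi1 libraries were above every untreated library, and its iPou4f3 and iP+A libraries were below every one. The log2 change (SE 0.267) was 1.47 in iG+A (limma adjusted p = 0.000268), -1.37 in iPou4f3 (adjusted p = 0.0045), -1.18 in iP+A (adjusted p = 0.00332) and 0.76 in iGfi1 (adjusted p = 0.0431), all under the fold threshold, and between 0.07 and 0.55 in the other 3 lines. Without replicate 2 of iG+A Dox the iG+A value became 1.78 and passed, as it did without replicate 1 of iG+A No Dox at 1.53, and against all 14 untreated libraries as 1 group (2.09). Without replicate 1 of iPou4f3 Dox the iPou4f3 value became -1.90 and passed.

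Flrt3 (NCBIM37 chr2:140476650-140497205, - strand, 3 exons in its longest transcript), which also modulates fibroblast growth factor signalling, stood at 1610.3 to 3359 without Dox. With Dox it stood at 346 and 456 in iGPA, 842 and 573 in iG+A, 780.1 and 1024 in iGfi1 and 629 and 686 in iAtoh1, and all of these lay below every untreated library. The fall, as a log2 change with SE 0.26, was -2.40 in iGPA (limma adjusted p = 6.65e-07), -1.92 in iG+A (adjusted p = 1.31e-05) and -1.56 in iGfi1 (adjusted p = 0.00032). The iAtoh1 value of -1.45 missed the fold threshold (adjusted p = 0.000608) and passed without replicate 2 of iAtoh1 Dox (-1.51) or of iAtoh1 No Dox (-1.58), or against all 14 untreated libraries as 1 group (-1.78). The iGfi1 call was lost without replicate 1 of iGfi1 Dox (-1.36), with quantile normalization (-1.48) and against all 14 untreated libraries as 1 group (-1.34). In iPou4f3, where the Dox libraries were at 2635 and 1482, and in iP+A, at 2027 and 1961, the groups differed by -0.41 (adjusted p = 0.443) and -0.41 (adjusted p = 0.279). In iG+P the libraries went from 1610.3 and 1767 to 998 and 1080.5, which also lay below every untreated library. The log2 change of -0.70 there was under the fold threshold (limma adjusted p = 0.0454).

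Per kb, Flrt3 stood above Flrt2 in the untreated libraries, with medians of 570 and 132 per kb and ranges of 405 to 845 and 101 to 227 per kb that did not overlap. With Dox the order was the other way in iGPA, at 153 and 184 per kb for Flrt2 against 87.0 and 115 per kb for Flrt3, and in iG+A, at 745 and 487 against 212 and 144 per kb. In iGfi1 the values were 255 and 372 per kb for Flrt2 and 196 and 257 per kb for Flrt3, which overlap. In iP+A, Flrt3 stood at 510 and 493 per kb and Flrt2 at 53.2 and 55.4 per kb.

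Mesenchymal markers were called down in 6 of the 7 lines. There were 10 such markers, among them Col1a1, Pdgfra and Twist1. Called down were 8 in iGPA (5.31% of all genes tested), 5 in iG+A (4.95%), 5 in iG+P (5.36%) and 3 in iAtoh1 (2.52%). In iGfi1 2 fell (2.67%), in iP+A 2 (2.58%) and in iPou4f3 0 (0.606%). Their summed level ran from 54129 to 170931 without Dox. With Dox it was 9198 to 12121 in iGPA, 10941 to 14183 in iG+P, 19427 to 45432 in iG+A, 31122 to 44111 in iAtoh1, 39404 to 47176 in iGfi1, 43611 to 51875 in iP+A and 62446 to 127256 in iPou4f3. None of the 10 was at 0 in any library. The part of mesenchymal cells in the FLRT changes was not tested.

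The netrin-G ligand genes, whose proteins sit at the receiving side of synapses, were not tested against each other either. Lrrc4b rose in 4 lines, Lrrc4c fell in 2, and Lrrc4, chosen for its rise, was above 0 with Dox in the 3 lines that combine Gfi1 with another factor.

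Lrrc4 (NCBIM37 chr6:28611831-28781747, - strand, 1 exon in its longest transcript) was listed at 0 in all 14 untreated libraries and with Dox in iAtoh1, iGfi1, iPou4f3 and iP+A. With Dox it stood at 489.9 and 439 in iGPA, 396 and 425 in iG+P and 77.7 and 123 in iG+A. Both replicates were above 0 in these 3 lines, and iG+A lay below the other two. In iGfi1, where Flrt1 stood at 80.2 and 104, Lrrc4 was at 0 in both libraries.

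Lrrc4b (NCBIM37 chr7:51684388-51718721, + strand, 3 exons in its longest transcript) stood between 105 and 209.6 without Dox. With Dox it stood at 619.9 and 501 in iG+P, 584 and 429 in iG+A, 560.1 and 517 in iGPA and 274 and 561 in iAtoh1, all above every untreated library. The log2 rise (SE 0.338) was 1.98 in iGPA (limma adjusted p = 0.000111), 1.92 in iG+A (adjusted p = 0.000195), 1.74 in iAtoh1 (adjusted p = 0.00118) and 1.61 in iG+P (adjusted p = 0.00107). The iAtoh1 call was lost without replicate 2 of iAtoh1 Dox (1.23), against all 14 untreated libraries as 1 group (1.47) and with only the iAtoh1 libraries in the fit (adjusted p = 0.0677), and the iG+P call was lost without replicate 1 of iG+P Dox (1.46) and with quantile normalization (1.497). In iP+A the libraries went from 209.6 and 115 to 505 and 252, and the log2 change of 1.195 was under the fold threshold (adjusted p = 0.0146), which it passed without replicate 1 of iP+A No Dox (1.63) or replicate 2 of iP+A Dox (1.696). In iGfi1 (242 and 258 with Dox) and iPou4f3 (162 and 218) the log2 changes of 0.74 and 0.58 did not pass. The Dox libraries of iP+A and iGfi1 also lay above every untreated library.

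Lrrc4c (NCBIM37 chr2:96158326-97471823, + strand, 7 exons in its longest transcript) varied widely between untreated libraries, from 121 to 854. In iG+A it went from 854 and 413 to 88.9 and 110.1, and in iGPA from 217 and 495 to 116 and 90.4. The log2 change (SE 0.339) was -2.57 in iG+A (limma adjusted p = 9.87e-06) and -1.67 in iGPA (adjusted p = 0.000564). Both calls were lost against all 14 untreated libraries as 1 group (-1.41 and -1.36), and the iGPA call was lost without replicate 2 of iGPA No Dox (-1.08) or of iGPA Dox (-1.49). In the other 5 lines the change was between -0.92 and -0.09 and did not pass. With Dox, the 8 libraries with Atoh1 ran from 88.9 to 133 and the 6 without from 113 to 308. In iGPA cells with Dox, Lrrc4b led per kb at 205 and 189, then Lrrc4 at 135 and 121 and Lrrc4c at 31.8 and 24.8 per kb.

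**Figure D2:**
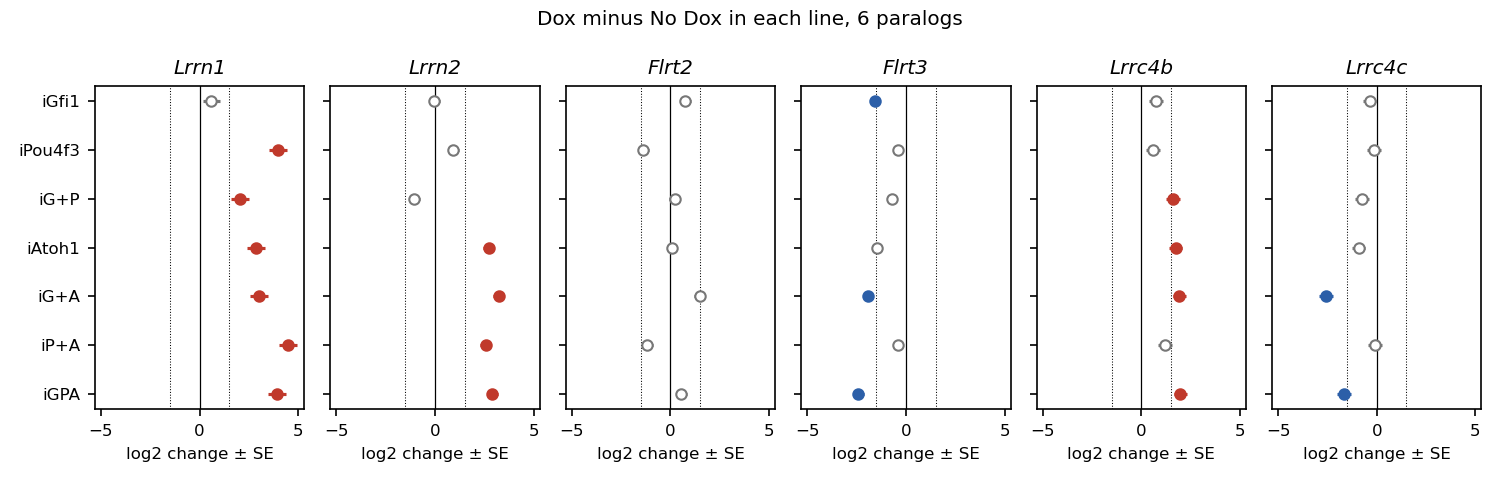
Log2 change, Dox minus No Dox, of the 6 tested paralogs in each line, with bars of 1 standard error; filled red is a rise and filled blue a fall past the threshold, open grey is not called, and dotted lines mark a log2 change of 1.5 either way. Lrrn1 reaches 4.49 in iP+A and Flrt3 -2.40 in iGPA.

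Averaged over lines, a Dox effect can be compared between the 4 lines with a factor and the 3 without it, although the other factors are then not evenly shared between the sides, as no line lacks all 3. Lrrn2 was called for Atoh1, with a difference of mean log2 change of 2.92 (SE 0.213, limma adjusted p = 2.25e-08), and was the 1 of 6 paralogs called there (4.59% of all genes tested). Flrt2 was called for Gfi1, with 1.57 (SE 0.204, adjusted p = 9.44e-06), also 1 of 6 (6.84% of all genes). The Flrt2 call was lost without replicate 2 of iPou4f3 Dox (1.397) and without replicate 1 of iG+A Dox (1.497). Flrt3 was not called for Gfi1, at -0.89 (SE 0.199, adjusted p = 0.00174), which is under the fold threshold. For Pou4f3, 0 of 6 were called (2.34% of all genes) by limma at the fold threshold. The nearest to that threshold were Lrrn1 at 1.47 (SE 0.347, limma adjusted p = 0.00979) and Flrt2 at -1.21 (SE 0.204, adjusted p = 0.000607). Leaving out any 1 of 11 libraries brought Lrrn1 past the threshold for Pou4f3, at 1.504 to 1.77, and against all 14 untreated libraries as 1 group Flrt2 passed for Pou4f3 at -1.59. For Lrrn1 the difference was 1.35 for Atoh1 and -1.38 for Gfi1, and it passed without 1 of 2 libraries for Atoh1 (iAtoh1 No Dox replicate 1 and iG+A No Dox replicate 2, at 1.58 and 1.52) and without 1 of 3 for Gfi1 (iAtoh1 No Dox replicate 1, iAtoh1 Dox replicate 2 and iG+A No Dox replicate 1, at -1.69, -1.52 and -1.56). Each factor was also taken as the mean of the 3 differences between lines whose cassettes differ by it, a comparison added after the data were seen, in which 5.13% of all genes were called for Atoh1, 7.91% for Gfi1 and 2.72% for Pou4f3. There the Atoh1 value of Lrrn1 was 1.59 (SE 0.371, limma adjusted p = 0.00328) and passed, its Gfi1 value was -0.79 (adjusted p = 0.114) and its Pou4f3 value 1.34 (adjusted p = 0.0244), which were not called, and the calls of Lrrn2 for Atoh1 (2.97) and Flrt2 for Gfi1 (1.57) held.

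The Dox effects of lines whose cassettes differ by 1 factor were also compared directly, in 9 differences tested as interactions, and 13 of the 54 tests on the 6 paralogs passed. The level of a shared factor could differ between such lines too: with Dox, Pou4f3 stood at 4694 and 5381 in iPou4f3, 10868 and 12878 in iP+A, 13037 and 15115 in iGPA and 17590.2 and 19883 in iG+P, without overlap between these lines, and the part of this level in the differences was not tested. Adding Gfi1 to a line gave 3 calls in iGPA minus iP+A (7.6% of all genes tested), 3 in iG+P minus iPou4f3 (7.63%) and 1 in iG+A minus iAtoh1 (6.87%). Adding Atoh1 gave 2 calls in iGPA minus iG+P (5.9%), 3 in iG+A minus iGfi1 (8.54%) and 1 in iP+A minus iPou4f3 (1.61%). Adding Pou4f3 gave 0 calls in each of iGPA minus iG+A (2.2%), iG+P minus iGfi1 (1.85%) and iP+A minus iAtoh1 (2.78%) by limma. The lowest adjusted p there was 0.064, for Flrt2 in iP+A minus iAtoh1 (-1.24). A missing call does not show that there was no difference. With a replicate block, Lrrn1 was also called in iP+A minus iAtoh1 (1.65, limma adjusted p = 0.0412) and in iGPA minus iG+P (1.88, adjusted p = 0.0113), which made 15 calls in all. Lrrn2 differed wherever Atoh1 was added to a line without it, by 1.66 to 3.96 in log2 change, of which the 1.66 in iP+A minus iPou4f3 lost its call without any 1 of 7 of the 8 libraries of these lines.

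**Figure D3:**
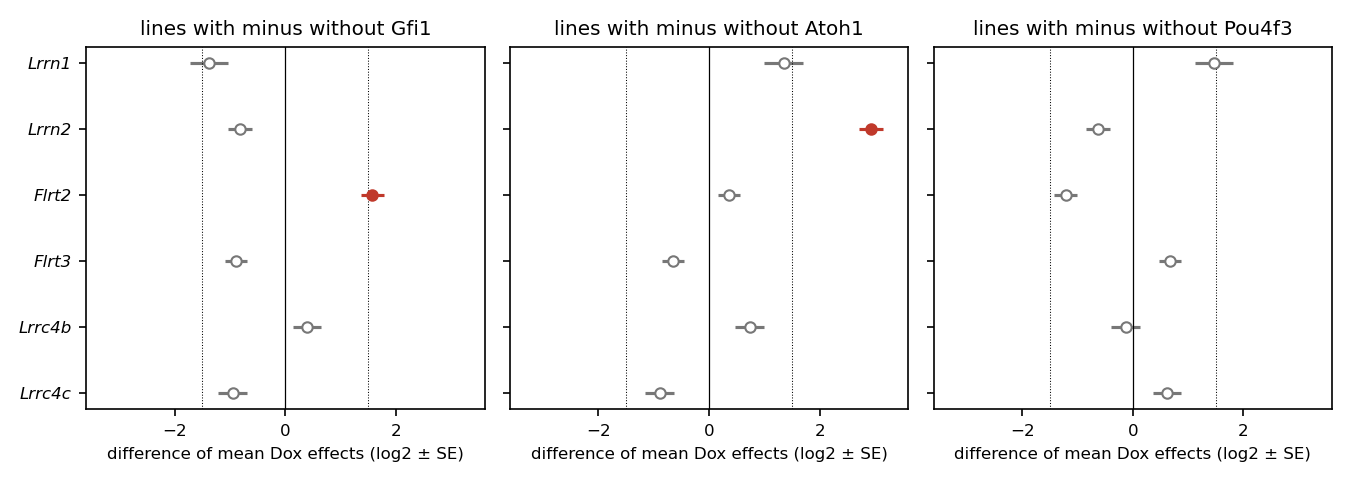
Difference of the mean Dox effect (log2, with bars of 1 standard error) between the 4 lines with and the 3 lines without Gfi1, Atoh1 or Pou4f3 for the 6 tested paralogs; filled red is past the threshold, open grey is not, and dotted lines mark 1.5 either way. Only Lrrn2 for Atoh1 (2.92) and Flrt2 for Gfi1 (1.57) are filled.

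The longest transcripts of Lrrn3, Flrt1, Lrrc4 and Flrt3 each lie inside an intron of a gene on the other strand, with Lrrn3 in Immp2l, Flrt1 in Macrod1, Lrrc4 in Snd1 and Flrt3 in Macrod2. In the GENCODE annotation of NCBIM37 the exons of these members share 0 bases with exons of their hosts, although the full span of Lrrc4, which has 2 transcripts, also covers other exons and introns of Snd1. Reads were assigned with default settings, which ignore strand, and the transcript set of the authors was not used here, so reads from a host and its member were separated only as far as that set allows. Snd1, a nuclease of the RNA interference machinery, had log2 changes from -0.35 to -0.02 over the 7 lines, and Immp2l, a mitochondrial inner membrane peptidase, from -0.06 to 0.50. Macrod1, which removes ADP-ribose from proteins, stood at 767.5 to 1643 in the 8 Dox libraries with Gfi1, where Flrt1 was high, and at 439 to 771 in the 6 without, so the ranges met at their ends. Its log2 change (SE 0.152) was 0.97 in iGfi1 (limma adjusted p = 0.000172), 1.22 in iG+A (adjusted p = 5.16e-06), 1.39 in iG+P (adjusted p = 1.26e-06) and 1.205 in iGPA (adjusted p = 3.86e-06), each under the fold threshold. Without replicate 2 of iG+P Dox the iG+P value was 1.56 and passed. Macrod2, its paralog, rose in iG+P by 1.56 (SE 0.285, limma adjusted p = 0.000322), while Flrt3 inside it had -0.70 there. That Macrod2 call was lost without replicate 1 of iG+P No Dox (1.37) or of iG+P Dox (1.42) and with quantile normalization (1.47). Where Flrt3 was called down, Macrod2 changed by 1.26 in iG+A (adjusted p = 0.00177), 1.01 in iGPA (adjusted p = 0.00742) and 0.61 in iGfi1 (adjusted p = 0.125), none called. In the lines without Gfi1 it changed by between -0.45 and 0.45.

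**Figure D4:**
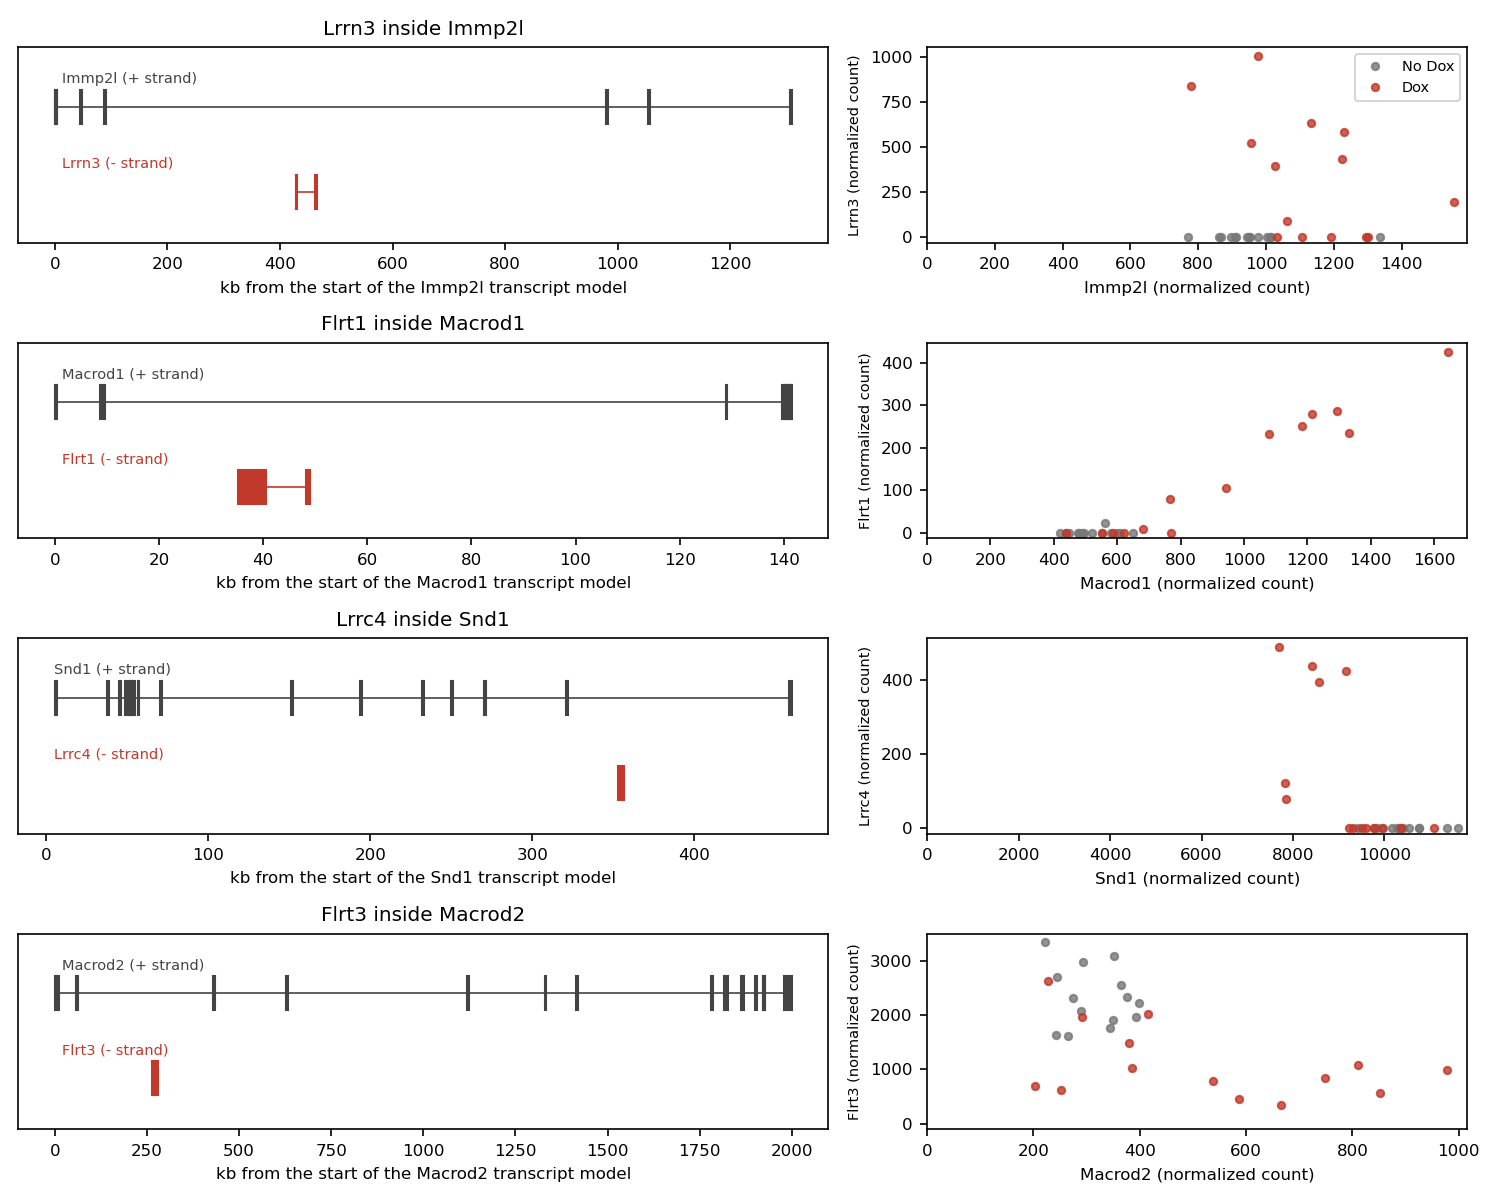
Left, exons (boxes, widened to be visible where short) of 1 transcript model of each member and its host, in kb from the start of the host; right, the normalized count of the member against that of its host in 28 libraries, grey No Dox and red Dox. Flrt1 is at 80.2 or more in the 8 Dox libraries where Macrod1 runs from 767.5 to 1643, and Snd1 lies between 7686 and 11616 in all libraries.

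Known binding partners of these proteins made up a list of 19 genes, all of them tested. Called up and down were 5 and 3 in iGPA (8.65% and 5.31% of all genes tested), 4 and 1 in iG+A (7.35% and 4.95%), 3 and 2 in iG+P (5.16% and 5.36%), 4 and 1 in iP+A (4.7% and 2.58%), 4 and 0 in iAtoh1 (2.89% and 2.52%), 2 and 0 in iPou4f3 (1.47% and 0.606%) and 1 and 1 in iGfi1 (2.15% and 2.67%). The median log2 change of the list ran from -0.46 in iGfi1 to 0.51 in iAtoh1, and that of all genes from -0.03 to 0.02.

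Ntng2, the netrin-G protein that is the partner of Lrrc4, was called up in 6 of the 7 lines. It stood between 14.3 and 38.6 without Dox and reached 1235 and 919 in iP+A, 1222 and 927 in iGPA, 818 and 696 in iAtoh1 and 591 and 317 in iG+P. In iPou4f3 (203 and 203) and iG+A (202 and 261) it was lower, and in iGfi1 (24.2 and 20.6) it stayed within the untreated range. The log2 rise (SE 0.387) was 5.73 in iGPA (limma adjusted p = 2.1e-09), and Lrrc4 was above 0 in 3 of the 6 lines with a called rise of Ntng2. Ntng1, the partner of Lrrc4c, rose in iP+A, from 3.13 and 2.63 to 189.7 and 313, and in iGPA went from 223 and 68.8 to 70.2 and 7.89, a log2 change of -2.31 (SE 0.792, limma adjusted p = 0.023) that lost its call without replicate 1 of iGPA No Dox (-1.47) or replicate 2 of iGPA Dox (-0.81). Its untreated level differed between lines, from 2.63 to 322, and against all 14 untreated libraries as 1 group neither Ntng1 call held (1.45 in iP+A and -1.83 in iGPA). Ptprd, a LAR-family phosphatase and a partner of Lrrc4b, fell in iG+P, from 2121 and 2288 to 358 and 457, and in iGPA, from 2095 and 2561 to 673 and 805.

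Among partners of the FLRT proteins, Unc5d rose in 5 lines and was highest in iP+A, at 1473 and 1115, against 21.4 to 52.1 without Dox. Unc5a rose in iG+A to 639.6 and 623 and in iGPA to 467 and 698, and in iGfi1 its rise of 1.57 (SE 0.287, limma adjusted p = 0.000682) was lost without replicate 1 of iGfi1 No Dox (1.45) or replicate 2 of iGfi1 Dox (1.27). Unc5b, named after its values were seen, was at 6355 to 15094 without Dox and fell in iGfi1, from 12617 and 13921 to 3013 and 4988, and in iG+P, from 13316 and 12489 to 3842 and 3258. The log2 changes of Unc5b (SE 0.237) were -1.77 in iGfi1 (limma adjusted p = 4.47e-05), a call lost without replicate 1 of iGfi1 Dox (-1.41), and -1.87 in iG+P (adjusted p = 6.93e-06). In iG+A (-1.08) and iGPA (-1.06) the changes of Unc5b were under the fold threshold, the iG+A value passing against all 14 untreated libraries as 1 group (-1.57), and in the 3 lines without Gfi1 they lay between -0.05 and 0.23. Adgrl3, a latrophilin, rose in 4 lines, by 1.53 in iG+P to 2.04 in iGPA (SE 0.215). Its iAtoh1 call was lost without replicate 1 of iAtoh1 No Dox (1.44), and its iG+P call without replicate 2 of iG+P No Dox (1.33) or replicate 1 of iG+P Dox (1.39). Against all 14 untreated libraries as 1 group both calls of Adgrl3 were lost (1.396 and 1.47). Tenm1, a teneurin, rose in 3 lines by 1.73 to 2.18 (SE 0.256), and its iGPA call was lost with quantile normalization (1.34). Tenm2 was called up in iG+P, from 80.4 and 120.4 to 1146 and 831, and down in iG+A (-2.04) and iGPA (-1.80). The iG+A call of Tenm2 was lost without replicate 1 of iG+A No Dox (-1.04) or replicate 2 of iG+A Dox (-1.66), and its iGPA call without replicate 2 of iGPA No Dox (-0.88) or replicate 1 of iGPA Dox (-1.43). Against all 14 untreated libraries as 1 group neither of these calls of Tenm2 held (-0.82 in iG+A and -1.39 in iGPA).

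The other leucine-rich repeat genes of neurons and glia formed a list of 29, of which 27 were in the table and 25 were tested. Slitrk1 and Slitrk3 did not pass the filter and stood at 4.12 and 5.87 at most. Called up and down were 9 and 2 in iGPA, 10 and 3 in iG+A, 8 and 1 in iG+P, 8 and 0 in iP+A, 1 and 0 in iAtoh1, 5 and 0 in iPou4f3 and 1 and 1 in iGfi1, to be read against the same shares of all genes as above. The median log2 change of the list lay between 0.29 in iGfi1 and 1.05 in iGPA.

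In iGPA the largest rises of this list were those of Elfn2, Lingo3, Slitrk6, Islr2 and Lingo1. Elfn2, a synaptic organiser, stood at 0 to 3.01 without Dox and at 87.2 and 69.8 in iGPA with Dox (limma adjusted p = 3.05e-05). Lingo3, of the family of the Nogo receptor partner Lingo1, rose by 4.81 (SE 0.448) to 574 and 565. Lingo1 itself rose by 3.25 (SE 0.342) to 1444 and 1518 in iGPA and by 2.60 in iG+A, the 2 lines that join Gfi1 with Atoh1. Slitrk6, a gene of the inner ear and its innervation, rose in the 4 lines with Gfi1, by 6.18 (SE 0.74) in iG+A, where the replicates were at 1910.2 and 755, and to 71.6 and 147 in iGPA. Islr2, a regulator of axon growth, was called in 5 lines and stood at 319 and 237 in iGPA, against 5.39 to 34.8 without Dox. The iG+A call of Islr2 was lost without replicate 2 of iG+A Dox (1.36), and its iG+P call without replicate 1 of iG+P No Dox (1.62) or of iG+P Dox (1.28), or against all 14 untreated libraries as 1 group (1.30).

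Islr and Lrrtm3 were the genes of the list called down in iGPA. Islr fell by 4.63 (SE 0.429, limma adjusted p = 1.04e-07), from 261 and 443 to 13.7 and 11.9, and it also fell in the other lines with Gfi1. Lrrtm3, which helps to form excitatory synapses, was low throughout, at 2.03 to 16.9 without Dox, and its call of -1.97 (SE 0.77, adjusted p = 0.0443) was lost without replicate 2 of iGPA No Dox (-1.28), replicate 1 of iGPA Dox (-0.78) or any of 8 libraries of other lines. Lrrtm4, named here after its values were seen, stood at 4.09 to 141 over the untreated libraries. With Dox it was at 1755 and 1544 in iPou4f3, 1349.7 and 315 in iG+A, 255 and 182 in iP+A, 227 and 122 in iGfi1, 46.1 and 25.6 in iG+P, 6.05 and 70.1 in iGPA and 43.1 and 4.72 in iAtoh1.

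**Figure D5:**
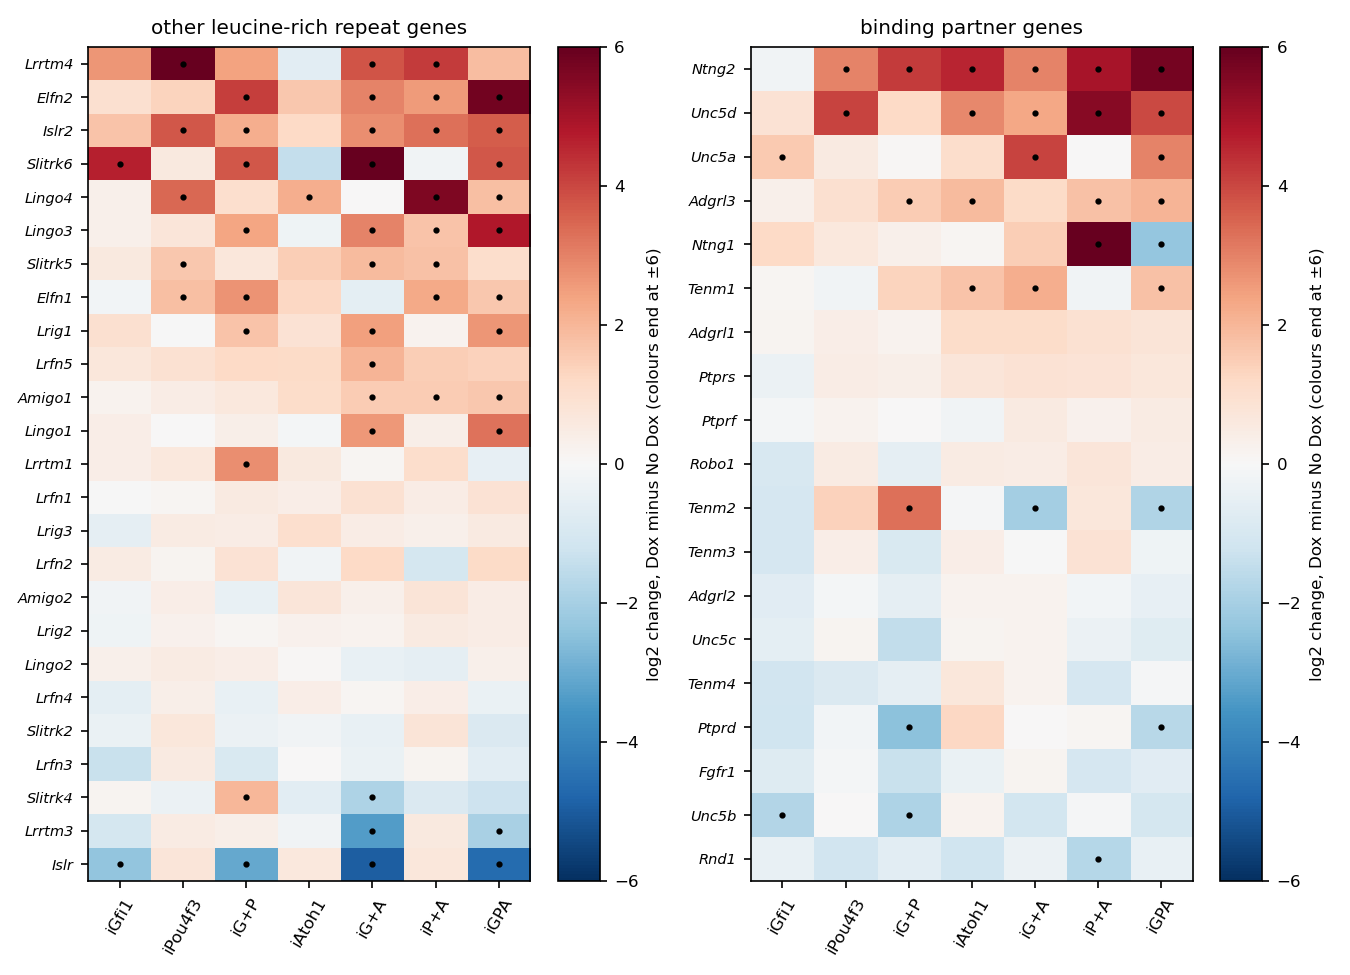
Log2 change, Dox minus No Dox, of the other leucine-rich repeat genes (left, 25 tested) and the binding partner genes (right, 19 tested) in each line, in order of their mean; red is higher and blue lower with Dox, the colours end at 6 either way, and a black dot marks a call. Ntng2 carries a dot in 6 lines and Islr in the 4 lines with Gfi1.

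Over the 28 libraries the genes most like each member in log2 level, by Pearson's r and as a description, were Astn1 for Lrrn1 (r = 0.966), Abcd2 for Lrrn2 (0.96), Cabp1 for Lrrn3 (0.964), Fbxo2 for Flrt1 (0.953), Tshr for Flrt2 (0.861), Fas for Flrt3 (0.938), Gsn for Lrrc4 (0.954), Trim65 for Lrrc4b (0.947) and Ltv1 for Lrrc4c (0.907). The next were Unc5d and Glrb for Lrrn1, Ppp1r14a and Cntnap1 for Lrrn2, Shc1 and Sncg for Lrrn3, Pcdhgb2 and Dgkg for Flrt1, Ehd4 and Gprc5a for Flrt2, Tac2 and Egfl6 for Flrt3, Lrrc29 and Catspere2 for Lrrc4, Dnmt3a and Efs for Lrrc4b, and Dapp1 and Ppp2r1b for Lrrc4c. The libraries share lines, clones and the contrast of Dox with No Dox, which the chosen genes follow. Hair cell markers moved in these lines too. Of 10, 5 rose in iGPA (8.65% of all genes tested), 5 in iG+P (5.16%), 4 in iG+A (7.35%) and 4 in iP+A (4.7%). In iPou4f3 3 rose (1.47%), in iGfi1 1 (2.15%) and in iAtoh1 0 (2.89%). Strc stayed at or under 17.9 in every library.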

How the data were processed

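Poly(A) RNA libraries of 28 samples were analysed. The authors trimmed reads with cutadapt, assigned them with kallisto to UCSC knownGene transcripts (mm9), collapsed transcripts into genes by tximport, and used DESeq2 for normalization (versions not given in the sources used here). The deposited values are log2(normalized count + 1), so no count test was run: only 72.4% to 79.4% of the values up to 20 could be taken as whole reads at a tolerance of 0.05. Genes that reached 10 normalized counts in 2 or more libraries (16837 of 19421, all 9 members among them) were fitted in R 4.3.3 with limma 3.58.1, with a variance trend and all 14 groups (14 residual degrees of freedom). Depth limits the precision of low genes. Members and lists were chosen with earlier results of these data known. Named genes were the members, their host genes, the 3 factors, up to 5 called genes per list and direction in iGPA, and the 3 genes most like each member. Genes outside this rule are other list genes, among them Lrrtm4 and Unc5b, and the marker genes given as examples, and they were named after their values were seen. Dox and No Dox samples of the same number deviated together within each line (r from 0.103 to 0.246, 7 lines), so an alternative fit paired them by number with a replicate block. The main fit did not pair them. The series record says that numbers mark different clones, and a shared clone for Dox and No Dox is inferred from these correlations. The alternatives were other pseudocounts, filters, normalizations, control groups, thresholds and sample sets, the pairing, each library left out and, added after the data were seen, the mean of the 3 matched differences per factor. Gene positions are from GENCODE on NCBIM37 and promoter windows from RefSeq on GRCm38.p6. Figures were drawn with matplotlib 3.10.9.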

Additional observations from a re-analysis of the deposited data

Results flagged for a closer look

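The results below are differences of Dox effects between lines whose cassettes differ by 1 factor, each tested as an interaction in limma with adjustment over 16837 genes. Of 54 such tests on the paralogs, 13 passed. Their values are differences in log2 change, and comparisons that share a line are not independent. In 4 of the 13 the line iPou4f3 was compared, where Pou4f3 with Dox (mean 5037) was lower than in iP+A (11873) and iG+P (18736), and the part of that level was not tested.

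When Atoh1 was added to Gfi1 (iG+A minus iGfi1), the effect on Lrrn2 was higher by 3.28 and that on Lrrn1 by 2.39, and that on Lrrc4c differed by -2.21 (8.54% of all genes tested were called). Without replicate 1 of iG+A No Dox the Lrrn1 value was 1.69 and was not called. When Atoh1 was added to Gfi1 with Pou4f3 (iGPA minus iG+P), Lrrn2 differed by 3.96 and Flrt3 by -1.70 (5.9% of all genes). When it was added to Pou4f3 (iP+A minus iPou4f3), Lrrn2 differed by 1.66 (1.61% of all genes), and that call was lost without any 1 of 7 of the 8 libraries of these lines (1.457 to 1.74).

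When Gfi1 was added to Pou4f3 (iG+P minus iPou4f3), Lrrn2 differed by -1.98, Lrrn1 by -1.94 and Flrt2 by 1.58 (7.63% of all genes). The Lrrn1 call sat at an adjusted p of 0.0432 and was lost without any 1 of 14 libraries, with values of -2.18 to -1.71, and also with no filter (-1.94, adjusted p = 0.051), with rescaling by the 75th percentile (-1.91, adjusted p = 0.0512) and without a variance trend (-1.94, adjusted p = 0.0587), and the Flrt2 call was lost without replicate 2 of iPou4f3 Dox (1.05), replicate 1 of iG+P No Dox (1.46) or replicate 2 of iG+P Dox (1.38). When Gfi1 was added to Pou4f3 with Atoh1 (iGPA minus iP+A), Flrt2 differed by 1.72, Flrt3 by -1.998 and Lrrc4c by -1.58 (7.6% of all genes). When it was added to Atoh1 (iG+A minus iAtoh1), Lrrc4c differed by -1.66 (6.87% of all genes). Those last 2 Lrrc4c calls were lost without any 1 of 6 and of 4 libraries, with values of -1.64 to -0.98 and -1.58 to -1.14, and with only the groups compared in the fit (adjusted p = 0.0805 and 0.11). With all 14 untreated libraries as 1 group, 7 of the 13 calls were lost: Lrrc4c in all 3 differences (-0.20, -0.17 and -1.12), Lrrn1, Lrrn2 and Flrt2 in iG+P minus iPou4f3 (-1.34, -0.90 and 1.13) and Flrt3 in iGPA minus iG+P (-1.38). Under that setting 6 other tests passed that had not: Lrrn1 in iG+P minus iGfi1 (1.69) and iP+A minus iAtoh1 (1.502), Flrt2 in iG+A minus iAtoh1 (2.36) and iGPA minus iG+A (-1.84), Flrt3 in iP+A minus iAtoh1 (1.601) and Lrrc4b in iG+P minus iPou4f3 (1.56), so the total was 12.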

How the results depend on the processing

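The counts of called paralogs in iG+A and iGPA stayed within 1.5 times under all 11 other settings, but the genes called could differ. With all 14 untreated libraries as 1 group (12.2% and 14% of all genes called), Lrrc4c lost its call in both lines (-1.41 and -1.36). Flrt2 gained a call in iG+A there (2.09). With a log2 change of at least 1 the shares of all genes were 18.5% in iG+A and 20.4% in iGPA. Elsewhere, of 6 paralogs, iAtoh1 went from 3 to 1 with only the groups compared (3.34% of all genes called). In iGfi1 the 1 call went to 0 with quantile normalization (4.83% of all genes) and with all 14 untreated libraries as 1 group (4.07%). In iG+P 2 went to 1 with quantile normalization (10.3%). With a log2 change of at least 1 the counts were 2 in iPou4f3 and 4 in iP+A, where 2.93% and 11.2% of all genes were called, and 2 for each of Gfi1, Atoh1 and Pou4f3 in lines with against without it (13.2%, 8.85% and 4.05% of all genes). For Gfi1 quantile normalization also gave 2 (6.68%), and for Pou4f3 all untreated libraries as 1 group gave 1 (2.68%). For Atoh1 the mean of the 3 matched differences, added after the data were seen, also gave 2 (5.13%). The list of other leucine-rich repeat genes in iAtoh1 had 1 call, and 0 with a pseudocount of 5 (4.79% of all genes), a filter of 50 (5.41%) or only the groups compared (3.34%), but 5 with all untreated libraries as 1 group (6.12%) or a log2 change of at least 1 (8.85%). It had 4 in iGfi1 with all untreated libraries as 1 group (4.07%) and 2 in iPou4f3 with only the groups compared (0.802%). Partner calls with a log2 change of at least 1 were 7 in iAtoh1 (8.85% of all genes), 4 in iGfi1 (9.78%), 8 in iG+A (18.5%) and 9 in iG+P (16.3%), and in iP+A they were 3 with all untreated libraries as 1 group (7.95%). The causes of these shifts were not tested.

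With 1 library left out, called paralogs ranged over 3 to 4 in iAtoh1, 0 to 1 in iGfi1, 1 to 2 in iPou4f3, 5 to 6 in iG+A, 1 to 2 in iG+P, 2 to 3 in iP+A, 4 to 5 in iGPA, 0 to 2 for Gfi1, 1 to 2 for Atoh1, 0 to 1 for Pou4f3 and 10 to 15 over differences between lines. Other leucine-rich repeat calls ranged over 0 to 1 in iAtoh1, 2 to 3 in iGfi1, 3 to 5 in iPou4f3, 9 to 13 in iG+A, 7 to 9 in iG+P, 5 to 8 in iP+A and 9 to 12 in iGPA. Partner calls ranged over 3 to 5 in iAtoh1, 1 to 2 in iGfi1, 2 to 2 in iPou4f3, 4 to 5 in iG+A, 5 to 6 in iG+P, 4 to 5 in iP+A and 7 to 8 in iGPA. Shares of all genes called are not given for these refits, nor for differences between lines with the replicate block or with 1 untreated group. Those counts therefore cannot tell a shift of the members from a shift of all genes. The signs of 2 small effects turned: Lrrc4c in iGfi1 ranged from -0.74 to 0.022 (without replicate 2 of iGfi1 Dox) and Flrt3 in iPou4f3 from -0.82 to 0.0092 (without replicate 2 of iPou4f3 Dox).

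With the replicate block for the inferred pairing of clones, paralog calls were 15 over the differences between lines, in place of 13: Lrrn1 was also called for iGPA minus iG+P (1.88, adjusted p = 0.0113) and iP+A minus iAtoh1 (1.65, adjusted p = 0.0412). It ended the call of Elfn2 in iP+A (adjusted p = 0.0662) and changed no other call of a paralog, host or named list gene. With 2 clones a group, p-values rest on the spread between clones pooled over 14 groups. Genes at 0 have no tested change.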
